A study of Mus musculus with 6 samples.

Results

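Genes that mark the epicardium and the fibroblast progenitors derived from it were followed in the atrioventricular canal (AVC) region of embryonic mouse hearts. The genes, Wt1, Tcf21, Tbx18, Upk3b, Upk1b, Msln, Pdgfra, Pdgfrb, Thy1 and Ddr2, were chosen for what they are known to mark, at a time when earlier results of these data were known, and all 10 were among the 18810 genes measured. RNA sequencing was carried out on AVC regions of 3 Scx-/- and 3 Scx+/+ hearts, with 1 library per sample. Both genotypes were C57BL/6 embryos collected at embryonic day 15.5, when the valves remodel, and by the methods of the study they were littermates. The null allele of Scx, which encodes the basic helix-loop-helix transcription factor Scleraxis, was present in every cell of the Scx-/- embryos throughout development, so an effect within the valve cannot be told apart from one that began elsewhere or earlier. The dissected pieces held the mitral, tricuspid and aortic valves with surrounding tissue and were not sorted, so each value is an average over several cell types. Expression is given as RPKM, reads scaled by exon length and by the depth of the library, and between 46429978 and 68570996 reads stood behind each library.

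The epicardium is the mesothelial sheet that covers the heart. Some of its cells undergo an epithelial-to-mesenchymal transition, move into the myocardium and the atrioventricular junction, and give rise to cardiac fibroblasts and mural cells, including many of the interstitial cells of the parietal valve leaflets. The transcription factors Wt1, Tcf21 and Tbx18 are active in the epicardial sheet, Tcf21 remains on in fibroblast progenitors, and Pdgfra and Pdgfrb encode the receptors through which platelet-derived growth factors direct the fibroblast and mural lineages.

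Scx itself was measured at 33.6, 18.6 and 82.9 RPKM in Scx-/- replicates 1, 2 and 3, and at 29.5, 58.3 and 26.0 RPKM in Scx+/+ replicates 1, 2 and 3. The genotypes overlapped fully, and the highest value belonged to a Scx-/- library. The difference was 0.07 on the log2 scale (SE 0.51, 95% interval -1.08 to 1.22, limma adjusted p = 0.996). With 1 library left out it ran from -0.50 to 0.57, so its direction was not settled. Without both Scx-/- replicate 3 and Scx+/+ replicate 2 it was -0.15. In the study the null allele was checked at exon 1, and a whole-gene value does not isolate that exon, so these values do not check the labels and each library is named as labelled.

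The libraries differed in ways that crossed genotype. Taking the 13827 genes that averaged 1 RPKM or more, the 3299 with more than 5 kb of exon lay lowest in Scx-/- replicate 3 and Scx+/+ replicate 2, with a median of -0.12 and -0.21 on the log2 scale against the mean of the 6 libraries. In the other 4 libraries this median ran from 0.02 to 0.15. In the same 2 libraries the summed level of 12 cardiomyocyte genes was highest, at 27534 RPKM in Scx-/- replicate 3 and 30194 RPKM in Scx+/+ replicate 2, against 17003 to 23065 RPKM elsewhere. The summed level of the 10 epicardial and fibroblast genes ran the other way, with 49.2 RPKM in Scx-/- replicate 3 and 39.6 RPKM in Scx+/+ replicate 2, the lowest of the 6, and 50.6 to 69.9 RPKM in the rest. The cardiomyocyte sum mostly reflects its most abundant genes, such as Myl2. The median of the 12 genes against their means was 0.27 in Scx+/+ replicate 2 but 0.08 in both Scx-/- replicates 1 and 3. Not every gene followed the sum, and Nkx2-5 was lowest in Scx-/- replicate 3 and Scx+/+ replicate 2, at 4.31 and 4.03 RPKM. Replicate 2 of each genotype also differed in sex from the others, since its Y-linked genes summed to 0.579 RPKM (Scx-/-) and 0.475 RPKM (Scx+/+) against at least 95.5 RPKM in the remaining 4. Scx+/+ replicate 2 also stood apart alone, with 56.9% of its summed RPKM in its 10 most abundant genes and 2252 fill-in values, against 30.7 to 43.9% and 1088 to 1465 fill-in values elsewhere. The part of the cardiomyocyte RNA in the differences described for individual genes was not tested. For genes called here, the left-out libraries and the scalings that end the call are given beside it.

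Levels were compared between genes on the RPKM scale, which corrects for exon length. Pdgfra was the most abundant at 17.1 ± 3.96 RPKM (mean and SD, n = 6), above Tcf21 in 6 of 6 libraries. Tcf21 (7.87 ± 1.91 RPKM) and Tbx18 (7.67 ± 2.32 RPKM) did not differ beyond their spread, since Tcf21 exceeded Tbx18 in only 2 of the 6. Upk3b followed at 6.43 ± 1.72 RPKM, below Tbx18 in 5 of 6 libraries. Upk1b (3.98 ± 1.15 RPKM) and Pdgfrb (3.87 ± 1.11 RPKM) again overlapped, as did Ddr2 (2.87 ± 0.697 RPKM) and Msln (2.5 ± 1.11 RPKM). Wt1 stood at 2.01 ± 0.329 RPKM, the smallest spread for its level among the 10. Thy1 was the least abundant at 0.412 ± 0.313 RPKM and exceeded only 11.6% of all genes, whereas Pdgfra exceeded 80.8%.

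**Figure D1:**
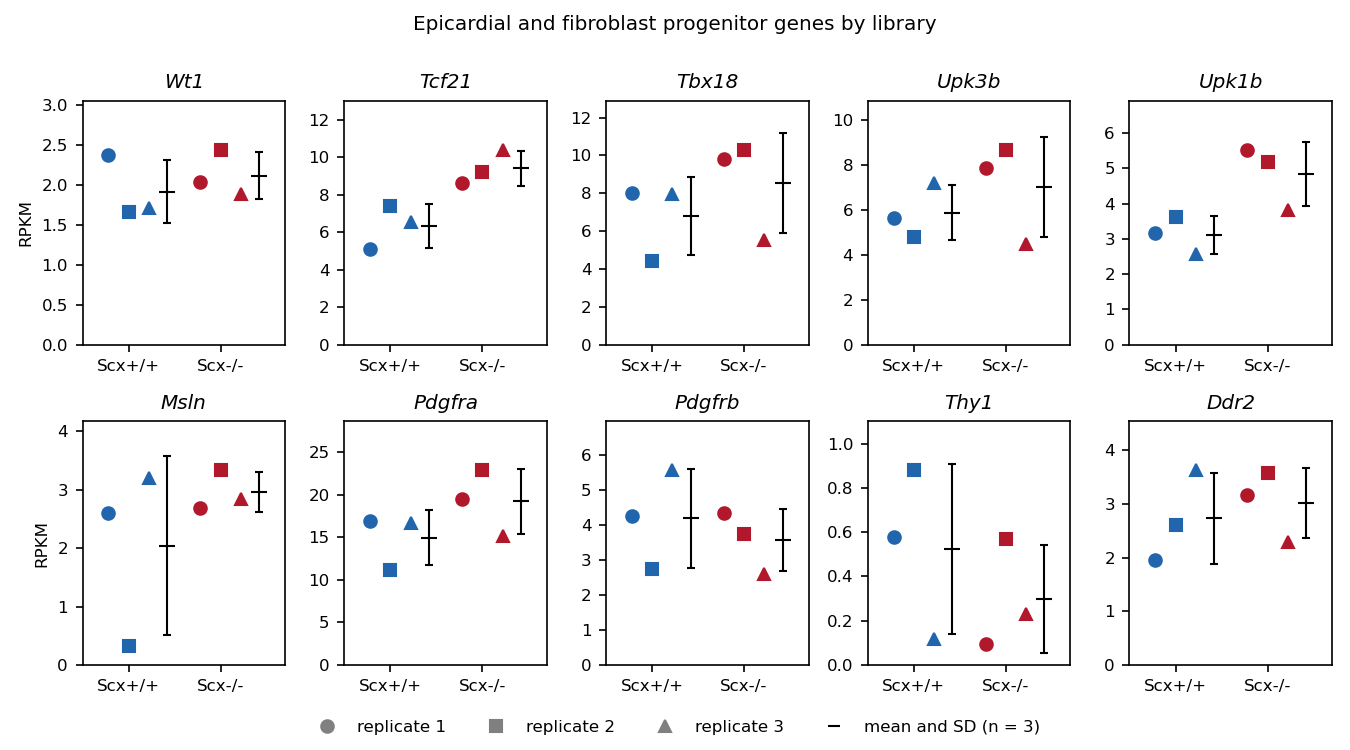
RPKM of each of the 10 genes (vertical axis, from 0) in Scx+/+ libraries (blue) and Scx-/- libraries (red), with the mean and SD of 3 libraries in black. The genotypes are separate for Tcf21 and Upk1b and overlap for the other 8 genes.

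Of the 10 genes, 2 were called different between genotypes, Tcf21 and Upk1b, both higher in Scx-/- AVC regions. A gene was called at an unadjusted limma p under 0.05, the threshold of the study, and the same rule called 3.89% of all 18810 genes, 2.82% as higher and 1.06% as lower in Scx-/-. The genotypes did not overlap for the same 2 genes, against 9.50% of all genes, 7.19% higher and 2.31% lower. After Benjamini-Hochberg adjustment over all genes 0 were left at an adjusted p under 0.05 with limma, against 731 before adjustment, and 1 was left with the one-way test per gene that the study used, adjusted likewise. For the 10 genes the limma adjusted p ran from 0.967 to 0.98, so neither call survived adjustment. The log2 fold change (of RPKM + 0.1) was above 0 for 8 of the 10 genes, with a median of 0.27, beside a median of 0.105 and 63.8% above 0 over all genes. With library medians set equal, the median of all genes moved to -0.005 and that of the 10 genes to 0.16, and the differences of single genes are to be read against that shift. Without Scx+/+ replicate 2 the median of the 10 genes was 0.07, beside 0.102 over all genes. In whole tissue, fewer cells of a type and less RNA per cell cannot be told apart, and this holds for every gene described here. With 3 libraries against 3, an exact permutation test cannot go below p = 0.1.

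**Figure D2:**
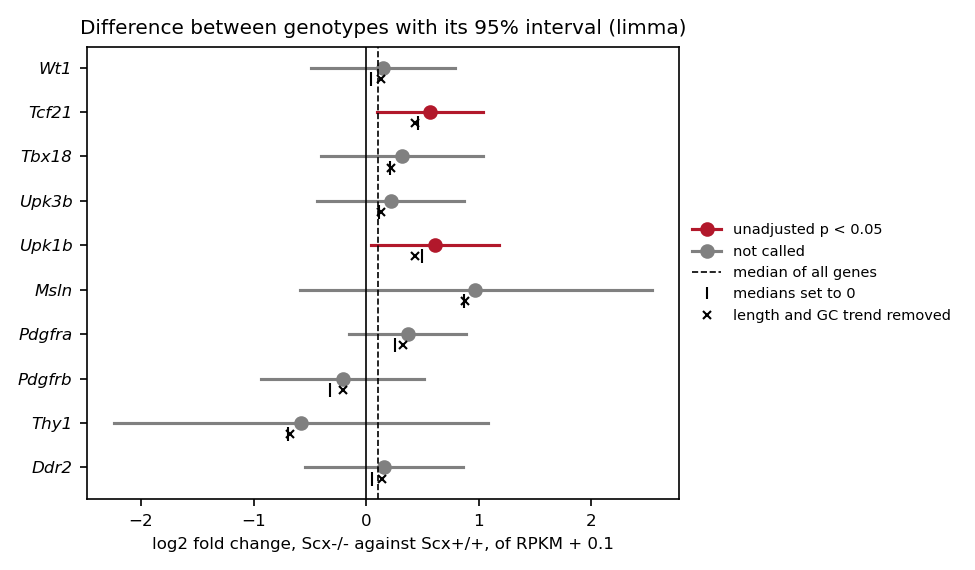
log2 fold change of Scx-/- against Scx+/+ (horizontal axis, of RPKM + 0.1) for each gene, with its 95% interval from limma (n = 3 per genotype). Red marks the called genes, the dashed line the median of all genes, 0.105, and small black marks the values with medians set to 0 and with the length and GC trend removed. The intervals of Tcf21 and Upk1b lie above 0 and those of the other 8 genes include 0.

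Tcf21 encodes a basic helix-loop-helix factor required for the formation of cardiac fibroblasts from the epicardium. Like Scleraxis, which belongs to the same family, it binds E-boxes (CANNTG) together with E-proteins. The gene (ENSMUSG00000045680, chr10:22537085-22539934 on the minus strand of mm9) has 1223 bases of exon in 2 blocks. It was measured at 8.61, 9.20 and 10.4 RPKM in Scx-/- replicates 1, 2 and 3, and at 5.09, 7.38 and 6.56 RPKM in Scx+/+ replicates 1, 2 and 3, from 374 to 757 reads. All 3 Scx-/- libraries lay above all 3 Scx+/+ libraries, and the highest of the 6 was Scx-/- replicate 3, where 8 of the 10 genes lay below their mean. The means were 9.39 ± 0.891 and 6.34 ± 1.16 RPKM (SD, n = 3), a ratio of 1.48. On the log2 scale they differed by 0.57 (SE 0.21, 95% interval 0.10 to 1.04, limma adjusted p = 0.967). The difference stayed above 0 but was no longer called without Scx-/- replicate 2 (0.58), without Scx-/- replicate 3 (0.50) or without Scx+/+ replicate 1 (0.42). The same held with library medians set to 0 (0.46), under quantile normalization (0.46) and after the dependence on exon length and base composition was removed (0.43). In the 4 libraries other than Scx-/- replicate 3 and Scx+/+ replicate 2, it was 0.61 and called.

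Because Scleraxis and Tcf21 both recognise E-boxes, the sequence just before the start of the genes is shown for Tcf21 and for the 3 others whose window held an E-box. RefSeq (GRCm38.p6) start sites were used for 5 of the 10 genes. The 250 bases before each were searched for CANNTG, which reads the same on both strands, and within it for CAGATG and its reverse complement CATCTG. Of 32851 such windows in the mouse genome, 66.2% held a CANNTG and 14.4% held CAGATG or CATCTG. The sequences are written 5' to 3' on the strand of the gene, with each E-box in capitals.
Tcf21: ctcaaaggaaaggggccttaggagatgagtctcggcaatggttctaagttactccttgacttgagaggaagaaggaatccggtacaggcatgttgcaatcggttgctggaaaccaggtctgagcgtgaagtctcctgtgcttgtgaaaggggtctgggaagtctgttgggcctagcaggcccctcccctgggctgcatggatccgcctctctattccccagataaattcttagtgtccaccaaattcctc
Tbx18: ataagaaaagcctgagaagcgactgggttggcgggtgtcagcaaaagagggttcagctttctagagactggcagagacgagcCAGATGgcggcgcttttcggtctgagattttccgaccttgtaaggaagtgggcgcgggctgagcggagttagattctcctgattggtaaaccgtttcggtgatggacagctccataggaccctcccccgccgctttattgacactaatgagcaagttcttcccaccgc
Upk3b: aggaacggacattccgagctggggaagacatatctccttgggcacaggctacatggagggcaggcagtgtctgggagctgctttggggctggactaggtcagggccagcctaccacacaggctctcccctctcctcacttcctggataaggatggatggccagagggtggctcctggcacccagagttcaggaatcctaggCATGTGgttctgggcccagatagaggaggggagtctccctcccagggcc
Pdgfra: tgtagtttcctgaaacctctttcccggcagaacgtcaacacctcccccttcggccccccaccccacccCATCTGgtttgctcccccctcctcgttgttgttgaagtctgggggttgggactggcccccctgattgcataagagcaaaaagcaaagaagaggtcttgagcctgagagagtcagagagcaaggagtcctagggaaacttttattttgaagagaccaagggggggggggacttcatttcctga
The Tcf21 window (chr10:22820144-22820393, minus strand) held no CANNTG and had a GC content of 52.4%, which was also the median of all windows. The Tbx18 window (chr9:87731261-87731510, minus strand) held CAGATG from 168 to 163 bases before the start. The Upk3b window (chr5:136038246-136038495, plus strand) held CATGTG from 49 to 44 bases before the start. The Pdgfra window (chr5:75152001-75152250, plus strand) held CATCTG from 182 to 177 bases before the start. The Ddr2 window (chr1:170088945-170089194, minus strand) had a GC content of 37.6% and held none. Thus 3 of 5 windows held CANNTG and 2 of 5 held CAGATG or CATCTG, beside 66.2% and 14.4% of all windows. With 5 windows these shares are coarse, and binding was not measured.

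Wt1 encodes a zinc finger factor that marks the epicardium and is needed for its epithelial-to-mesenchymal transition. It was measured (ENSMUSG00000016458, chr2:104966686-105013773, plus strand of mm9) at 2.03, 2.44 and 1.88 RPKM in Scx-/- and at 2.37, 1.66 and 1.71 RPKM in Scx+/+ replicates 1, 2 and 3. The genotypes overlapped, with Scx+/+ replicate 1 close to the highest Scx-/- library. With 477 to 1013 reads a library, the log2 difference was 0.15 (SE 0.28, 95% interval -0.49 to 0.79). With 1 library left out it ran from 0.05 (without Scx-/- replicate 2) to 0.31 (without Scx+/+ replicate 1).

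Tbx18 encodes a T-box factor of the epicardium and the sinus horns. Its values (ENSMUSG00000032419, chr9:87597635-87626095, minus strand of mm9) were 9.79, 10.3 and 5.52 RPKM in Scx-/- and 8.01, 4.44 and 7.96 RPKM in Scx+/+ replicates 1, 2 and 3. The lowest library of each genotype was one of the 2 that stood apart by their long genes, Scx-/- replicate 3 and Scx+/+ replicate 2, and the genotypes overlapped through Scx-/- replicate 3 alone. The log2 difference was 0.32 (SE 0.32, 95% interval -0.40 to 1.04). It depended on which of these was kept, at 0.04 without Scx+/+ replicate 2 and 0.61 without Scx-/- replicate 3. Without both it was 0.33 and not called, on Scx-/- values of 9.79 and 10.3 RPKM against 8.01 and 7.96 RPKM.

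Upk3b and Upk1b encode uroplakins, membrane proteins of the bladder lining that are also made by mesothelium, and Msln encodes mesothelin, a surface glycoprotein of mesothelial cells. Upk1b (ENSMUSG00000049436, chr16:38773297-38800316, minus strand of mm9) was measured at 5.53, 5.17 and 3.81 RPKM in Scx-/- and at 3.18, 3.63 and 2.56 RPKM in Scx+/+ replicates 1, 2 and 3. All 3 Scx-/- libraries were above all 3 Scx+/+ libraries, although the gap between the lowest of one and the highest of the other, 3.81 and 3.63 RPKM, was small. The means were 4.84 ± 0.906 and 3.13 ± 0.535 RPKM (SD, n = 3), a ratio of 1.55. On 298 to 613 reads, they differed by 0.61 on the log2 scale (SE 0.25, 95% interval 0.04 to 1.18, limma adjusted p = 0.967). The gene was called in 2 of the 6 fits that left out 1 library, and not without Scx-/- replicate 1 (0.51), Scx-/- replicate 2 (0.56), Scx+/+ replicate 1 (0.63) or Scx+/+ replicate 3 (0.48). It was also not called with medians set to 0 (0.50) or with the length and GC trend removed (0.43). In the 4 libraries that did not stand apart the difference was 0.88 and called.

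Upk3b (ENSMUSG00000042985, chr5:136514366-136521173, plus strand of mm9) was measured at 7.87, 8.66 and 4.47 RPKM in Scx-/- and at 5.62, 4.77 and 7.18 RPKM in Scx+/+ replicates 1, 2 and 3. Scx-/- replicates 1 and 2 were the highest of the 6 and Scx-/- replicate 3 the lowest, so all 3 Scx+/+ values fell within the Scx-/- range. The log2 difference was 0.22 (SE 0.29, 95% interval -0.44 to 0.87), with 0.04 when Scx-/- replicate 2 was left out and 0.51 when Scx-/- replicate 3 was.

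Msln (ENSMUSG00000063011, chr17:25885559-25891272, minus strand of mm9) was measured at 2.69, 3.34 and 2.84 RPKM in Scx-/- and at 2.61, 0.316 and 3.21 RPKM in Scx+/+ replicates 1, 2 and 3. A single library, Scx+/+ replicate 2 with 31 reads, lay far below the others, which had 298 to 473 reads. The log2 difference of 0.97 (SE 0.69, 95% interval -0.59 to 2.54) was the highest of the 10 and rested on that library. Without it the difference was 0.03. Tcf21 and Upk1b in the same library, at 7.38 and 3.63 RPKM, were by contrast the highest of the Scx+/+ libraries, although all 6 epicardial genes lay below their mean over the 6 libraries there and Wt1, Tbx18 and Upk3b, like Msln, were the lowest of the Scx+/+ libraries.

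Across the 6 genes most typical of the epicardium (Wt1, Tcf21, Tbx18, Upk3b, Upk1b and Msln), the log2 difference was above 0 in 6 of 6, with a median of 0.45 and 2 called, beside a median of 0.105, 63.8% above 0 and 3.89% called over all genes. Without Scx+/+ replicate 2 the median of the 6 was 0.07, beside 0.102 over all genes, with 6 of the 6 above 0. The size of the median thus rested on that library. The number called was again 2, in a fit that called 1549 of all genes against 731 with every library kept. It was 0 or 1 when any other library was left out. The highest of the 6 libraries was a Scx-/- one for each of these genes, and it was Scx-/- replicate 2 for 4 of them. Averaged over the 6 genes, the log2 level against the mean of all libraries was 0.30, 0.43 and -0.02 in Scx-/- and -0.05, -0.64 and -0.01 in Scx+/+ replicates 1, 2 and 3. The value of Scx+/+ replicate 2 was mostly that of Msln, at -2.39 there, and averaged over the other 5 genes it was -0.30. For those 5 genes Scx-/- replicates 1 and 2 lay at 0.29 and 0.38, and Scx-/- replicate 3, at -0.11, lay beside Scx+/+ replicates 1 and 3, at -0.13 and -0.14.

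Pdgfra encodes the alpha receptor for platelet-derived growth factors, a surface marker of fibroblast progenitors that valve mesenchyme also carries. Its values (ENSMUSG00000029231, chr5:75548316-75594229, plus strand of mm9) were 19.5, 22.9 and 15.2 RPKM in Scx-/- and 16.9, 11.2 and 16.7 RPKM in Scx+/+ replicates 1, 2 and 3. Scx-/- replicates 1 and 2 were above every Scx+/+ library and Scx-/- replicate 3 was not, so the genotypes overlapped. On 3497 to 10334 reads, the log2 difference was 0.37 (SE 0.23, 95% interval -0.15 to 0.89) and ran from 0.17 to 0.52 when each library was left out.

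Pdgfrb encodes the beta receptor, which marks mural cells and epicardium-derived mesenchyme. It was measured (ENSMUSG00000024620) at 4.33, 3.75 and 2.59 RPKM in Scx-/- and at 4.25, 2.75 and 5.57 RPKM in Scx+/+ replicates 1, 2 and 3. Scx+/+ replicate 3 was the highest and Scx-/- replicate 3 the lowest, and the rest were intermixed. The log2 difference was -0.21 (SE 0.32, 95% interval -0.93 to 0.51), and it was 0.00 without Scx-/- replicate 3 and 0.02 without Scx+/+ replicate 3. Pdgfra and Pdgfrb therefore lay on different sides of 0, but the interval of each included 0 and the difference between them was not tested.

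Ddr2 encodes a receptor tyrosine kinase that is activated by fibrillar collagen and is used as a fibroblast marker. Its values (ENSMUSG00000026674, chr1:171902439-172040632, minus strand of mm9) were 3.17, 3.57 and 2.29 RPKM in Scx-/- and 1.95, 2.60 and 3.63 RPKM in Scx+/+ replicates 1, 2 and 3. The genotypes were intermixed, with both the highest and the lowest library Scx+/+. The log2 difference was 0.16 (SE 0.31, 95% interval -0.54 to 0.86) and -0.05 without Scx+/+ replicate 1. Of its 8424 exon bases, 88 are shared with a noncoding gene on the opposite strand, 3110045C21Rik, whose reads could not be told apart there. No exon of the other 9 genes overlaps that of another gene.

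Thy1 encodes a small surface glycoprotein of fibroblasts that T cells and neurons also carry. Scx-/- replicate 1 held the fill-in value of 0.0949 RPKM which marks values too low to be kept, the lowest other value in that library being 5.54 reads per kilobase of exon. The remaining Scx-/- libraries had 0.568 and 0.232 RPKM (replicates 2 and 3), and Scx+/+ replicates 1, 2 and 3 had 0.576, 0.881 and 0.118 RPKM. The gene (ENSMUSG00000032011, chr9:43851467-43856662, plus strand of mm9) rested on 14 to 71 reads in those 5 libraries, which were spread over both genotypes. A log2 difference of -0.58 (SE 0.73, 95% interval -2.24 to 1.08) thus had an interval wider than that of any of the other 9 genes. It was -0.13 without Scx+/+ replicate 2, -0.16 without Scx-/- replicate 1 and -1.22 without Scx+/+ replicate 3. The 4 fibroblast and receptor genes had a median log2 difference of -0.02, with 2 above 0, 2 below and 0 called. With 1 library left out this median ran from -0.12 (without Scx-/- replicate 2) to 0.20 (without Scx+/+ replicate 3), so its direction was not settled.

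**Figure D3:**
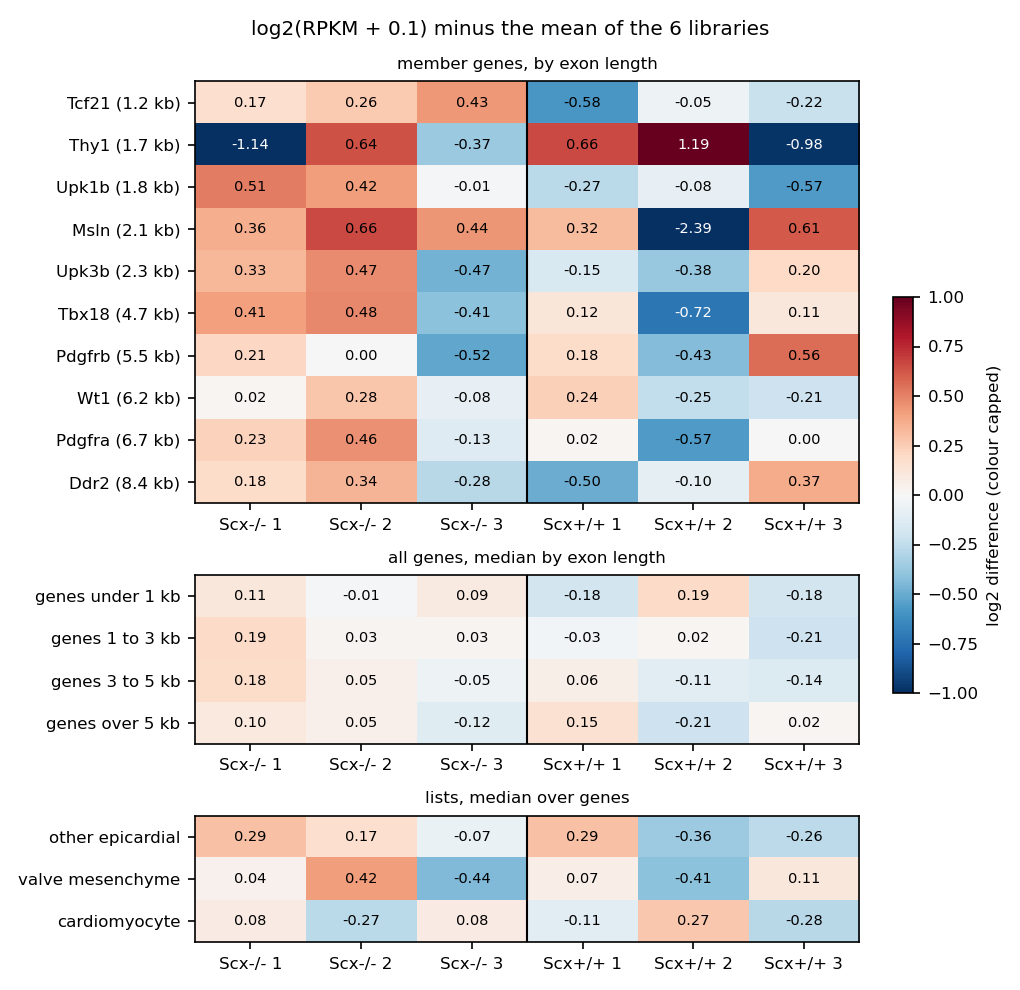
log2(RPKM + 0.1) minus the mean of the 6 libraries (colour and printed value) by library, for the 10 genes in order of exon length, for all genes in 4 classes of exon length and for 3 lists of marker genes. Genes over 5 kb are lowest in Scx-/- replicate 3 and Scx+/+ replicate 2, where cardiomyocyte genes have a median of 0.08 (the same as in Scx-/- replicate 1) and 0.27.

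The genes did not vary together across the 6 libraries as 1 group. The lowest library was Scx-/- replicate 3 or Scx+/+ replicate 2 for 6 of the 10, and the highest was Scx-/- replicate 2 for 5. Tcf21, Upk1b, Thy1 and Ddr2 followed neither, with their highest values in Scx-/- replicate 3, Scx-/- replicate 1, Scx+/+ replicate 2 and Scx+/+ replicate 3. The 2 called genes, with 1223 and 1769 bases of exon, were among the 3 shortest, and Wt1, Pdgfra and Ddr2, with 6195 to 8424 bases, the longest. Removing the dependence on length and base composition brought the log2 difference of Tcf21 and Upk1b to 0.43 each. The same step moved the median of all genes from 0.105 to 0.014. With library medians set to 0 alone, the differences of Tcf21 and Upk1b were 0.46 and 0.50, so a part for length was not isolated.

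Among 13818 other genes averaging 1 RPKM or more, those whose centred log2 values were most like the average of the 6 epicardial genes were Maob, Kif15 and Max, each at a root mean square difference of 0.05 over the 6 libraries, and Abca8b and 0610037L13Rik, each at 0.07. The average itself had a root mean square of 0.34. For the 4 fibroblast and receptor genes, whose average had a root mean square of 0.21, the closest were Kdm1b, Ino80e and Col5a2 at 0.05 and Irf3 and Zfp953 at 0.06. Of the 13818 genes, 157 and 135 lay within 0.15 of the respective averages. Of the 10 genes named 0 were called, beside 3.89% of all genes. They were picked for matching these averages, so their calls are not a separate result.

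Other genes of the epicardium were read from a further list, also chosen with earlier results of these data known. The genes called in it, Aldh1a1 and Aldh1a2, had already been named in the study, so its counts are not independent support. Of 15 listed, 13 were in the table, with 2 called higher in Scx-/- and 0 lower, beside 2.82% and 1.06% of all genes. The log2 difference was above 0 for 10 of 13, with a median of 0.39, beside 63.8% and a median of 0.105 over all genes. Aldh1a1, a retinaldehyde dehydrogenase, was measured at 3.79, 3.66 and 2.53 RPKM in Scx-/- and at 1.07, 2.27 and 1.02 RPKM in Scx+/+ replicates 1, 2 and 3, without overlap. Its log2 difference was 1.21 (SE 0.36, 95% interval 0.39 to 2.03, limma adjusted p = 0.967). Aldh1a2, the enzyme with which the epicardium makes retinoic acid, was measured at 5.10, 4.02 and 4.27 RPKM in Scx-/- and at 3.30, 3.33 and 2.20 RPKM in Scx+/+ replicates 1, 2 and 3. Its log2 difference was 0.60 (SE 0.25, 95% interval 0.02 to 1.18, limma adjusted p = 0.967), or 0.49 and not called with medians set to 0. Aldh1a1 was called in 3 of the 6 fits that left out 1 library, and not without Scx-/- replicate 2 (1.13), Scx+/+ replicate 1 (1.05) or Scx+/+ replicate 3 (1.02). Aldh1a2 was called in 1 of the 6, that without Scx+/+ replicate 2, and otherwise had a log2 difference of 0.41 to 0.69. It was also not called under quantile normalization (0.54), with the length and GC trend removed (0.44), with sex as a covariate (0.60), or in the 4 libraries that did not stand apart (0.73). The most abundant, the membrane glycoprotein Gpm6a, had 9.26 ± 1.44 against 7.06 ± 1.10 RPKM (SD, n = 3; log2 difference 0.39, not called). The summed level of the list was 35, 34.9 and 26.9 RPKM in Scx-/- and 30.2, 22.4 and 23.9 RPKM in Scx+/+ replicates 1, 2 and 3, again lower in Scx-/- replicate 3 than in its group and lowest in Scx+/+ replicate 2.

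All 15 other fibroblast genes were in the table, with 2 called higher and 0 lower, beside 2.82% and 1.06% of all genes. Their median log2 difference was 0.12, close to the 0.105 of all genes. Lum, which encodes the collagen-binding proteoglycan lumican, was measured at 71.1, 122 and 83.8 RPKM in Scx-/- and at 53.4, 48.1 and 48.2 RPKM in Scx+/+ replicates 1, 2 and 3. Every Scx-/- library was above every Scx+/+ library, and the log2 difference was 0.85 (SE 0.21, 95% interval 0.37 to 1.34, limma adjusted p = 0.967), called in 6 of the 6 fits that left out 1 library. The one-way test per gene that the study used called it on log2 RPKM (0.85) and not on RPKM itself (0.89, as the log2 ratio of the means). Meox1, a homeobox factor, was measured at 8.66, 12.3 and 7.13 RPKM in Scx-/- and at 6.42, 6.86 and 5.29 RPKM in Scx+/+ replicates 1, 2 and 3 (log2 difference 0.56, SE 0.24), and was not called with medians set to 0 (0.45), under quantile normalization (0.48), with the length and GC trend removed (0.43) or without the pooled trend of the variance (0.56), nor by the one-way test on log2 RPKM (0.57) or on RPKM itself (0.60). With 1 library left out it was called in 1 of the 6 fits, that without Scx-/- replicate 3, and otherwise had a log2 difference of 0.35 to 0.64. The most abundant, Vim, the intermediate filament of mesenchymal cells, had 517 ± 88.7 against 472 ± 32.1 RPKM (SD, n = 3) and was not called. Over the list 9 of the 15 log2 differences were above 0, beside 63.8% over all genes. The genotypes did not overlap for 5 of the genes, 4 higher in Scx-/- (Lum, Meox1, Dcn and Fap) and 1 lower (Col1a1). Over all genes this share was 9.50%, with 7.19% higher and 2.31% lower. Of these, Dcn (0.40, SE 0.18), Fap (0.65, SE 0.31) and Col1a1 (-0.50, SE 0.25) were not called.

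**Figure D4:**
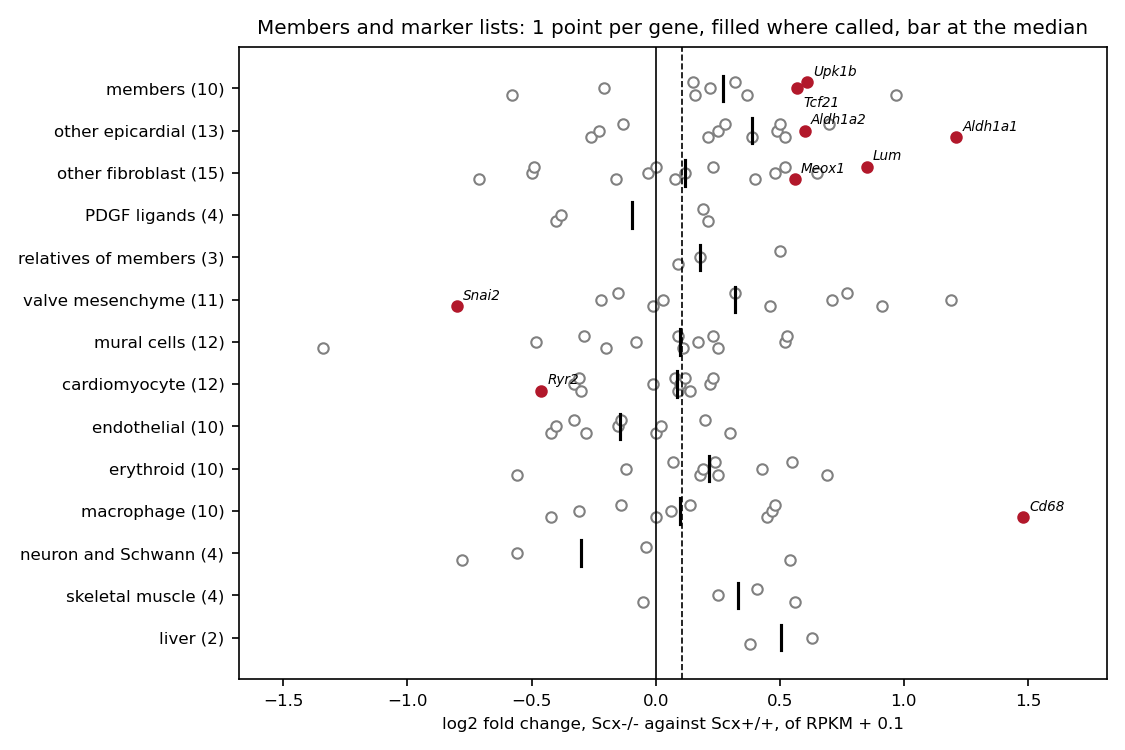
log2 fold change of Scx-/- against Scx+/+ (horizontal axis, of RPKM + 0.1) for the 10 genes, labelled members, and for lists of related genes and cell type markers, with the number measured in brackets. Points are genes, filled where called, bars are list medians and the dashed line is the median of all genes, 0.105. Named points are the called genes, and each list with 4 or more genes has points on both sides of 0.

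The 4 ligands of the platelet-derived growth factor receptors had 0 called genes and a median log2 difference of -0.09. Over all genes 3.89% were called and the median was 0.105. Pdgfa, a ligand of the alpha receptor, had the highest mean over the 6 libraries but lay below Pdgfd in Scx-/- replicate 3 and Scx+/+ replicate 2. It was measured at 11.1, 7.47 and 7.08 RPKM in Scx-/- and at 7.69, 7.82 and 6.22 RPKM in Scx+/+ replicates 1, 2 and 3. Only Scx-/- replicate 1 stood out, and the log2 difference was 0.21 (SE 0.23). Of 10 relatives of the epicardial and fibroblast genes, the table listed 3, all without a call and with a median of 0.18. Ddr1, the epithelial counterpart of Ddr2, was the most abundant at 9.18 ± 3.98 against 7.69 ± 1.35 RPKM (SD, n = 3).

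Valve mesenchyme, the cell population that shares Pdgfra with the fibroblast progenitors, was followed through 12 genes, of which 11 were listed. Their median log2 difference was 0.32, beside 0.105 over all genes. Of the 11, 0 were called higher and 1 lower, beside 2.82% and 1.06% of all genes. The log2 difference was above 0 for 7 of the 11, beside 63.8% of all genes. The genotypes did not overlap for 3 genes higher in Scx-/- and 1 lower (Snai2), beside 7.19% and 2.31% of all genes. The 3 higher ones, Prrx1 (0.46, SE 0.25), Prrx2 (1.19, SE 0.71) and Hapln1 (0.32, SE 0.25), were not called. Prrx2 held the fill-in value in Scx+/+ replicate 2. Tbx20, the most abundant, had 50.5 ± 14.0 against 49.4 ± 13.5 RPKM (SD, n = 3), a log2 difference of 0.03 (SE 0.27). Snai2, a repressor active in epithelial-to-mesenchymal transition, was measured at 1.78, 1.64 and 0.865 RPKM in Scx-/- and at 2.99, 2.0 and 2.46 RPKM in Scx+/+ replicates 1, 2 and 3 (log2 difference -0.80, SE 0.35, limma adjusted p = 0.967). It was called in 2 of the 6 fits that left out 1 library, and not without Scx-/- replicate 2 (-0.92), Scx-/- replicate 3 (-0.50), Scx+/+ replicate 1 (-0.66) or Scx+/+ replicate 3 (-0.80), nor with sex as a covariate (-0.80), among genes averaging 1 RPKM or more (-0.80) or in the 4 libraries that did not stand apart (-0.64). The one-way test did not call it on log2 RPKM (-0.85) or on RPKM itself (-0.80) either. The summed level of the list, 74.8 RPKM in Scx-/- replicate 3 and 68.3 RPKM in Scx+/+ replicate 2 against 104 to 133 RPKM in the others, was low in the same libraries as Tbx18 and Pdgfra. For mural cells, 0 of 12 genes were called and the median was 0.10, with Acta2 the most abundant at 441 ± 93.0 against 390 ± 46.7 RPKM (SD, n = 3).

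Markers of other cell types in the tissue were read alongside. Over all genes, 2.82% were called higher in Scx-/- and 1.06% lower, with a median log2 difference of 0.105. Of 12 cardiomyocyte genes, 1 was called lower, Ryr2 (log2 difference -0.46, SE 0.18), 0 were called higher, and the median was 0.08. Ryr2 was called in 2 of the 6 fits that left out 1 library, and not without Scx-/- replicate 1 (-0.42), Scx-/- replicate 2 (-0.36), Scx+/+ replicate 1 (-0.48) or Scx+/+ replicate 3 (-0.39), nor with the length and GC trend removed (-0.30) or without the pooled trend of the variance (-0.46). The most abundant, Myl2, had 8364, 7247 and 11262 RPKM in Scx-/- and 6299, 11634 and 5910 RPKM in Scx+/+ replicates 1, 2 and 3, so that even its lowest library was far above every value of the 10 epicardial and fibroblast genes. Of 10 endothelial genes 0 were called, with a median of -0.14 and Pecam1 the most abundant at 36.5 ± 3.04 against 35.8 ± 2.68 RPKM (SD, n = 3). Of 10 erythroid genes 0 were called, with a median of 0.21. They summed to 13495, 14286 and 9514 RPKM in Scx-/- and 7826, 10657 and 14027 RPKM in Scx+/+ replicates 1, 2 and 3, with Hba-a1 the most abundant, whose reads cannot be told apart with certainty from those of its near copy Hba-a2. Of 10 macrophage genes, 1 was called higher, Cd68 (log2 difference 1.48, SE 0.57, on values of at most 1.54 RPKM), with a median of 0.10. C1qa had the highest mean over the 6 libraries, at 4.84 ± 1.91 against 3.47 ± 1.24 RPKM (SD, n = 3), but was the highest of the list in only 3 of them. Cd68 was called in 3 of the 6 fits that left out 1 library, and not without Scx-/- replicate 2 (1.14), Scx-/- replicate 3 (1.57) or Scx+/+ replicate 2 (1.01), nor with the length and GC trend removed (1.35) or in the 4 libraries that did not stand apart (1.10), nor by the one-way test on log2 RPKM (1.88) or on RPKM itself (1.69). Its value in Scx+/+ replicate 2 was the fill-in value. Of 10 neuronal and Schwann cell genes, 4 were listed and 0 called, with a median of -0.30 and Stmn2 the most abundant.

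Markers of neighbouring tissues, some of which make the same proteins, were also read. The table listed 0 of 9 thymus and T cell genes, Cd3e among them. It listed 0 of 6 lung epithelium genes and 2 of 6 liver genes, Apoa2 and Ttr, neither above 0.623 RPKM in any library. Of 8 skeletal muscle genes 4 were listed with 0 called and a median of 0.33, and the defining factors Myod1, Myog, Myf5 and Pax7 were not among them. Ckm, the most abundant of these, is also made by cardiomyocytes and was highest in the same 2 libraries as their summed level. It had 2249 RPKM in Scx-/- replicate 3 and 3016 RPKM in Scx+/+ replicate 2 against 915 to 1350 RPKM in the others.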

How the data were processed

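By their methods, the authors aligned the reads with TopHat 1.4.1 to mm9, counted reads in Ensembl exons with easyRNASeq, dropped genes that reached about 50 reads nowhere, and set values of at most 10 reads to a fill-in value, found as 0.0949 in the table. By the reads recovered here, 2181 genes of the table reached 50 reads in no library and 3286 values of 10 reads or fewer were not filled in, while the lowest other value of a library stood for 5.46 to 5.56 reads per kilobase. The deposited values are RPKM, not counts, so no count test was run. Columns were matched to genotype and replicate by label. Gene names, exon lengths and GC content were looked up in GENCODE for mm9 (18695 of 18810 identifiers matched). Reads per gene were recovered from RPKM, exon length and a solved depth, and were whole within 0.1 read for at least 98.45% of values under 1000 reads in each library. limma 3.58.1 in R 4.3.3 was fitted to log2(RPKM + 0.1) of all genes, without covariates, with an intensity trend and p-values (2-sided) adjusted by Benjamini-Hochberg, and was tested on simulated data. The pseudocount understates changes of low genes. Python 3.11.15 with numpy 2.4.6, pandas 2.3.3 and matplotlib 3.10.9 did the rest.

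The genes named are the 10 members, Scx, and the most abundant and the called genes of each marker list. Col1a1, Dcn, Fap, Prrx1, Prrx2 and Hapln1, whose genotypes did not overlap, were added after their values were seen. Also named are the 5 other genes with the smallest root mean square difference from the average profile of each of 2 subsets of the members. A few others, such as Pdgfd, Hba-a2, Apoa2 and Nkx2-5, are named only beside these. The members and lists were chosen with earlier results of these data known. Alternatives were pseudocounts of 0.01 and 1, a floor of 1 RPKM on the mean, no intensity trend, one-way ANOVA per gene on RPKM and on its log2, quantile normalization, library medians set to 0, the replicate number as a block, sex as a covariate and each library left out. Added after seeing the data were removal of splines (5 degrees of freedom) fitted in each library to the length of the exons and to GC content, and a fit without the 2 libraries that stood apart.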

Additional observations from a re-analysis of the deposited data

How the results depend on the processing

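Each of the 10 genes was refitted under up to 18 alternatives, 179 values in all. Direction and side of the threshold held in 164. In 12, 6 each for Tcf21 and Upk1b, the direction held and the call was lost, and in 3 the direction turned. The number of the 10 genes called, 2, was 1 under quantile normalization, 0 with medians set to 0, 0 with the length and GC trend removed, and 0 to 2 with each library left out. It was 0 without Scx-/- replicate 2 or Scx+/+ replicate 1. The number of all genes called, 731, was 539 to 1549 with each library left out, the highest without Scx+/+ replicate 2, and 1587 in the 4 libraries other than Scx-/- replicate 3 and Scx+/+ replicate 2. With 1 library left out, the log2 difference of Pdgfrb ran from -0.47 to 0.02 and was 0.00 without Scx-/- replicate 3, and that of Ddr2 ran from -0.05 to 0.38. The causes were not tested. The median log2 difference of the 10 genes ran from 0.07 to 0.50 with each library left out. It was lowest without Scx+/+ replicate 2, where the median of all genes was 0.102. Quantile normalization moved the median of all genes to 0.016 and trend removal to 0.014. Deviations from the genotype means of libraries with the same replicate number had r of 0.09, -0.22 and -0.19 across genes, which are not independent. The highest r, 0.32, was between Scx-/- replicate 3 and Scx+/+ replicate 2. With 3 libraries per genotype these deviations depend on one another, so the values cannot decide whether any libraries are paired. With the replicate block 573 genes and 2 of the 10 were called, and of the called genes of the other lists Aldh1a2 (0.60), Snai2 (-0.80) and Cd68 (1.48) were not. Thy1, with 14 to 71 reads outside its fill-in value, had the fewest reads of the 10 and was dropped at a mean of at least 1 RPKM.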
